A study of Arabidopsis thaliana with 6 samples.

Results

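Central cell type I MADS-box genes are a group of 7 *Arabidopsis* transcription factor genes: *AGL80*, *AGL46*, *AGL45*, *AGL96*, *AGL91*, *AGL23* and *AGL61*. They were picked by locus identifier, by a rule that names no measured value although earlier results of these data were known, and are 7 of the 32678 genes listed in the expression table. Messenger RNA was sequenced from seeds of *agl62*/- plants and from seeds of WT plants, in 3 biological replicates per genotype, or 6 libraries in all. For these libraries the study's methods describe *agl62* plants that were emasculated, pollinated by hand and harvested 30 hr later. The sample labels give 30 hr after pollination for both genotypes. The sample labels give *agl62*/-, and the study's methods describe seeds of homozygous *agl62* plants, which appear at low frequency, while a source data legend names *agl62*/+ seeds. The strain of the WT plants in these libraries is not given in the sources used here, so that genotype and strain cannot be told apart. Each value below is the authors' mean of the 3 libraries of a genotype, in counts normalized by DESeq size factors, and the table used here holds no value of a single library. The spread between replicates is therefore unknown, and no difference below was tested against it.

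MADS-box proteins bind DNA as dimers through the conserved MADS domain at or near their N-terminal end. The plant type I genes form the Mα, Mβ and Mγ subfamilies and are best known from the female gametophyte and the endosperm, and Mα proteins often pair with Mγ proteins in yeast interaction assays. The central cell is the cell of the female gametophyte that, once fertilized, gives rise to the endosperm. AGL62, an Mα protein, keeps the endosperm from cellularizing too early. Of the 7 genes, *AGL80*, *AGL46*, *AGL45* and *AGL96* belong to Mγ, whereas *AGL91*, *AGL23* and *AGL61* belong to Mα. The samples were whole seeds taken after fertilization, so the label "central cell" describes where the genes are known from and could not be checked in this tissue. In such bulk samples, fewer cells of a type and less RNA per cell cannot be told apart.

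The part of each coding sequence that starts the MADS box is shown to let the close relatives be compared, since expression differed most between some of them. Each is the sense strand, 5′ to 3′, over 150 bases or 50 codons, from RefSeq on TAIR10.1. For the Mγ genes, capitals mark bases that are the same as in *AGL80* at the same place, and *AGL80* itself is in lower case.
AGL80: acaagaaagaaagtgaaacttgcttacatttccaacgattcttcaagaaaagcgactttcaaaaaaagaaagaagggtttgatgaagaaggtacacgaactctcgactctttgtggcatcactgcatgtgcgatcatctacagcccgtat
AGL46: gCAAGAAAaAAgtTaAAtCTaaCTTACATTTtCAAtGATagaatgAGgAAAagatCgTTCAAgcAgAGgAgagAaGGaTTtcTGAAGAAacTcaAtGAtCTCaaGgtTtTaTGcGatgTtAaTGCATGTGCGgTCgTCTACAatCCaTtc
AGL45: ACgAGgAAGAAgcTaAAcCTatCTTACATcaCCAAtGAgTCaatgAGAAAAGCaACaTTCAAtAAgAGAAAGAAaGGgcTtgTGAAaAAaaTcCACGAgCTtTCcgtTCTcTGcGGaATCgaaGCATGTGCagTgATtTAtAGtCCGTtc
AGL96: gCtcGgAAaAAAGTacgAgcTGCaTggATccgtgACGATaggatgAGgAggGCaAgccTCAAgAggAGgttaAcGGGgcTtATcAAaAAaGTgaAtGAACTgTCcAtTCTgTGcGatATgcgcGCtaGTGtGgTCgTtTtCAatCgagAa
For the Mα genes, capitals mark bases that are the same as in *AGL91*.
AGL91: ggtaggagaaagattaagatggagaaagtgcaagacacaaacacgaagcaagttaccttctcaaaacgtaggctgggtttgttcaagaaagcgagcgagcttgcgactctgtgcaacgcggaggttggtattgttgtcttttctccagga
AGL23: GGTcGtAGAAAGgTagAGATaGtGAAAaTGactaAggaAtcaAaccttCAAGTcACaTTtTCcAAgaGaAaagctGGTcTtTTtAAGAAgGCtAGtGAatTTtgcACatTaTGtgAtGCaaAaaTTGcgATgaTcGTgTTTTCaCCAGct
AGL61: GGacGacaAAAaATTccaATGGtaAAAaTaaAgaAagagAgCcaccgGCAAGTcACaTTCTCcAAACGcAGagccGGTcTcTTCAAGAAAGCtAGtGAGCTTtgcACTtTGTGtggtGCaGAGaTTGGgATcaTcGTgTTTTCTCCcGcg
The windows begin at codon 2 in the 4 Mγ genes and in *AGL91*, at codon 7 in *AGL23* and at codon 63 in *AGL61*. *AGL45* shared 102 of 150 bases (68.0%) with *AGL80*, *AGL46* shared 92 (61.3%) and *AGL96* shared 78 (52.0%). *AGL45* and *AGL46* shared 99 bases (66.0%) with each other. Among the Mα genes, *AGL61* shared 94 bases (62.7%) and *AGL23* shared 85 (56.7%) with *AGL91*, and *AGL23* and *AGL61* shared 106 (70.7%) with each other.

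On TAIR10.1, *AGL80* (AT5G48670) lies at chr5:19738646-19739841 on the minus strand and has 1 exon. *AGL46* (AT2G28700) lies at chr2:12317166-12318790 on the minus strand with 3 exons, and *AGL45* (AT3G05860) at chr3:1751385-1752407 on the minus strand with 3 exons and 3 annotated transcripts. *AGL96* (AT5G06500) lies at chr5:1982444-1983205 on the plus strand with 1 exon. *AGL91* (AT3G66656) lies at chr3:2091262-2091798 on the minus strand with 1 exon, *AGL23* (AT1G65360) at chr1:24281337-24282233 on the plus strand with 2 exons, and *AGL61* (AT2G24840) at chr2:10581069-10582015 on the plus strand with 1 exon. No other annotated gene overlapped any of the 7. No stretch of 100 exonic bases of any of them was found elsewhere in the genome, which bears on the authors' use of uniquely mapping reads.

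The gene that defines the genotypes was examined first. *AGL62* had a mean of 1.81 normalized counts in *agl62* seeds, against 410 in WT seeds, a 227-fold lower value (log2 ratio -7.82, 95% interval for counting error -9.23 to -6.72). The value of 1 count in each library could be read from the means under 1, which were whole-number sums of 0.256, 0.291 and 0.315 in *agl62* and of 0.242, 0.326 and 0.731 in WT. The shallowest library was thus a WT library, with a relative depth of 0.456, against 1.02 and 1.38 in the other WT libraries and 1.06 to 1.30 in the *agl62* libraries. As a floor, 3 counts over a genotype in its shallowest library equalled 0.945 normalized counts in *agl62* and 2.19 in WT. All intervals below cover counting error only. The means summed to 58421347 in *agl62* and 60412799 in WT, and the median log2 ratio over the 19264 genes that reached 10 in both genotypes was 0.009.

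The 7 genes did not move as a group. *AGL46* and *AGL91* were far lower in *agl62* seeds, *AGL23* was higher, *AGL80* and *AGL45* differed by less than 2-fold, and *AGL96* and *AGL61* were near or under the floor in both genotypes. Among all genes, 20255 had a mean of at least 10 in one genotype, and of these 726 (3.58%) were at least 2-fold lower and 649 (3.2%) at least 2-fold higher in *agl62* seeds. Of the 7 genes, 5 reached that level, with 2 lower, 1 higher and 2 neither. *AGL46* and *AGL91* reached it through WT alone, and *AGL23* and *AGL45* through *agl62* alone, so that these counts carry no weight as support. The low levels matter here, since 4 of the 5 averaged between 10 and 50 over the genotypes, a band chosen after the values were seen. In that band 283 of 2235 genes (12.7%) were at least 2-fold lower and 323 (14.5%) at least 2-fold higher. The median log2 ratio of the 5 genes that reached a mean of 10, with 1 added to each mean, was -0.26. It was 0.01 for the 20255 genes that did so.

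**Figure D1:**
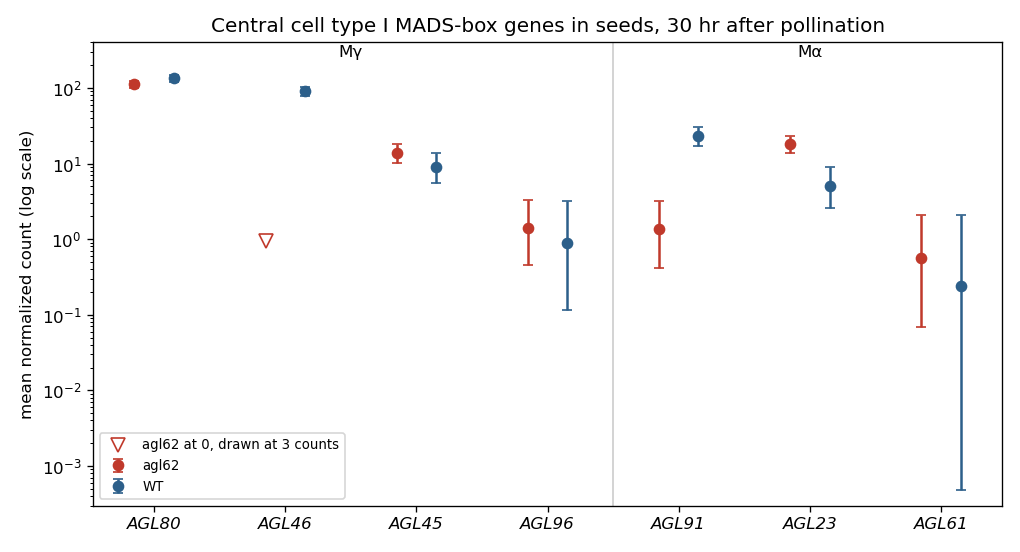
Authors' mean normalized count (log scale) of the 7 genes in *agl62* seeds (red) and WT seeds (blue), with 95% intervals for counting error only. *AGL46*, at 0 in *agl62*, is drawn as an open triangle at the floor of 3 counts, 0.945, and *AGL46* and *AGL91* are the genes whose *agl62* value lies far under the WT value.

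*AGL80* encodes the Mγ protein that forms a dimer with AGL61 and is needed for central cell development. Per kilobase of exon it was the most abundant of the 7 in both genotypes. It had a mean of 112 in *agl62* seeds (interval 101 to 124) and 134 in WT seeds (interval 119 to 150). These means stand for 356 to 437 counts in *agl62* and 184 to 553 in WT, the range being wide because it is not known which library gave which counts. The *agl62* mean was 83.6% of the WT mean (log2 ratio -0.26, interval -0.48 to -0.04). The intervals of the means overlap, and a difference of this size cannot be judged without the spread between replicates. Its neighbour AT5G48660, separated by 107 bases, had 1450 in *agl62* and 1850 in WT (log2 ratio -0.35).

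*AGL46*, another Mγ gene, gave the largest difference of the 7. It was at 0 in *agl62* seeds, with no count in any of the 3 libraries, against a mean of 91.0 in WT seeds (interval 79.1 to 104), or 125 to 376 counts. Set against the floor of 3 counts, 0.945, *AGL46* was at least 96.3-fold lower in *agl62* seeds, a bound taken at the WT mean itself. The 95% interval of the *agl62* mean reached 1.06, above that floor, so the bound holds by the choice of floor and is not a 95% limit. In WT seeds it was, of the 7, the gene nearest to *AGL80* in level per kilobase of exon. The genes on either side were close to equal in both genotypes. AT2G28690 had 28.7 in *agl62* and 25.9 in WT, and AT2G28710 had 15.9 in *agl62* and 13.5 in WT.

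*AGL45* is the Mγ gene closest to *AGL46* in sequence, with 67.6% identity over 509 bases, and each was the other's best match in the genome. Its values did not follow those of *AGL46*. The mean of *AGL45* was 13.9 in *agl62* seeds (45 to 54 counts) and 8.93 in WT seeds (13 to 36 counts). The log2 ratio was 0.64, and its interval of -0.13 to 1.46 included 0. The pair thus stood apart. *AGL46*, which has no interval of the log2 ratio, had a bound of -6.59 taken at the WT mean, and the interval of *AGL45* began at -0.13. The next gene after *AGL45*, *APC11*, which encodes a subunit of the anaphase-promoting complex, had 450 in *agl62* and 448 in WT. On the other side, AT3G05858 had 3.31 in *agl62* and 1.54 in WT, the WT value being under the floor.

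*AGL96*, the last of the Mγ genes, was barely detected. It had a mean of 1.41 in *agl62* seeds, which is 5 counts, and 0.894 in WT seeds, which is 3 counts. The interval of the log2 ratio ran from -1.95 to 3.99, and no difference was detectable at this depth. No other sequence in the genome matched *AGL96* at the nucleotide level in the search used.

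*AGL91* had the largest difference among the 3 Mα genes of the group. Its mean was 1.35 in *agl62* seeds, from 5 counts (interval 0.419 to 3.23), against 23.1 in WT seeds, from 32 to 95 counts (interval 17.3 to 30.2). It was 17.1-fold lower in *agl62* seeds, at 5.84% of the WT mean (log2 ratio -4.10, interval -5.84 to -2.75). The spread of the WT counts over the 3 libraries is not known. Both neighbours were even. AT3G66654 had 1950 in *agl62* and 1930 in WT, and *ALDH22A1*, an aldehyde dehydrogenase gene, had 3830 in *agl62* and 4050 in WT. The closest match of *AGL91* in sequence was *AGL29* (69.7% over 524 bases), another Mα gene, with 52.1 in *agl62* and 94.6 in WT (log2 ratio -0.86, interval -1.15 to -0.57). That smaller difference is read with care, since 1 annotated gene overlaps *AGL29* and whether the counting used strand is not given in the sources used here.

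*AGL23*, which is needed for female gametophyte and embryo development, was the member that was higher. It had a mean of 17.9 in *agl62* seeds, from 57 to 69 counts (interval 13.7 to 22.9), against 5.04 in WT seeds, from 8 to 18 counts (interval 2.57 to 8.88). It was 3.55-fold higher in *agl62* seeds (log2 ratio 1.83, interval 0.91 to 2.87). The intervals of the means do not overlap, while the lower end of the ratio's interval lies below 2-fold. The closest match of *AGL23* was *AGL28* (78.1% over 489 bases), also an Mα gene, and it was higher as well, with 46.0 in *agl62* and 10.5 in WT (log2 ratio 2.13, interval 1.51 to 2.81). The neighbour AT1G65352 had 3.97 in *agl62* and 0.568 in WT, and AT1G65370 had 13800 in *agl62* and 15700 in WT.

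*AGL61*, also called *DIANA*, encodes the Mα partner of AGL80 in the central cell. It was at or near 0 in both genotypes, with a mean of 0.57 in *agl62* seeds, which is 2 counts, and 0.242 in WT seeds, which is 1 count. Both are under the floor, so no ratio is given. At 30 hr, whole seeds of both genotypes thus held far more *AGL80* RNA than *AGL61* RNA, also per kilobase of exon. The closest match of *AGL61* in sequence was *AGL62* itself (74.0% over 215 bases). Beside *AGL61*, AT2G24830 had 986 in *agl62* and 870 in WT. *TAT3*, separated by 58 bases, had 3.76 in *agl62* and 0.568 in WT, the WT value being under the floor.

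Levels of different genes were compared per kilobase of exon. In *agl62* seeds the order was *AGL80* with 93.6 normalized counts per kilobase, *AGL23* with 23.5, *AGL45* with 14.7, *AGL91* with 2.51, *AGL96* with 1.85, *AGL61* with 0.602 and *AGL46* with 0. In WT seeds it was *AGL80* with 112, *AGL46* with 71.4, *AGL91* with 43.0, *AGL45* with 9.44, *AGL23* with 6.61, *AGL96* with 1.17 and *AGL61* with 0.256. *AGL46* and *AGL91*, which came next after *AGL80* in WT, thus stood behind *AGL23* and *AGL45* in *agl62*. Neighbours whose counting intervals overlapped were *AGL23* and *AGL45* in both genotypes, *AGL91* and *AGL96* as well as *AGL61* and *AGL46* in *agl62*, *AGL23* and *AGL96* in WT, and *AGL96* and *AGL61* in both.

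**Figure D2:**
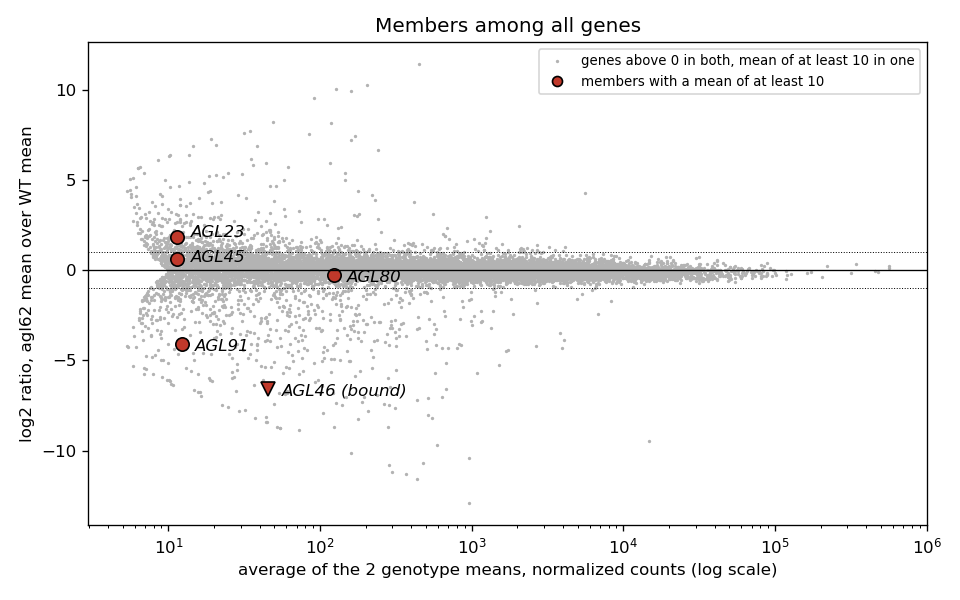
Log2 ratio (*agl62* mean over WT mean) against the average of both means (log scale) for genes that reached a mean of 10 in one genotype and were above 0 in both (grey) and for the 5 genes of the group that reached that level (red), with dotted lines at 2-fold. *AGL91* and *AGL46*, a triangle at its bound of -6.59, lie well below the lower line, *AGL23* lies above the upper line at 1.83, and the grey points widen toward low averages.

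MADS-box proteins bind the CArG box, so the 250 bases before each annotated start were searched on both strands for this motif. It was found before *AGL23* alone, 1 of the 7, and before 692 of 27443 protein-coding genes (2.52%). The match began 162 bases before the start. It is shown in capitals within its 50 bases at chr1:24281155-24281204 on the plus strand, because *AGL23* was the member with the higher value.
AGL23 upstream: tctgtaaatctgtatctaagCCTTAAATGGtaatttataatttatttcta
The match describes these letters only. The annotation of *AGL23*, *AGL91* and *AGL96* begins at the start codon, so that their true transcription starts may lie further upstream and the searched window may not hold the promoter.

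The 7 genes were then set within their family. A list of 59 type I names was drawn up over the Mα, Mβ and Mγ subfamilies, of which 51 matched the annotation, and 44 of these are outside the 7. Of the 44, 16 had a mean of at least 10 in one genotype, with 5 at least 2-fold lower in *agl62* seeds, 3 at least 2-fold higher and 8 neither. In the whole list of 51 the counts were 7 lower, 4 higher and 10 neither among 21, and 5 genes were at 0 in both genotypes. By subfamily, Mγ had 4 lower, 1 higher and 4 neither among 9, Mα had 3 lower, 3 higher and 2 neither among 8, and all 4 Mβ genes that reached that level were neither. The background shares given above, 3.58% lower and 3.2% higher over all levels, and the larger shares at low levels, apply to these counts as well. *AGL62* itself, the gene that defines the genotypes, is among the lower genes of the 44, of the 51 and of Mα. *AGL62*, *AGL64* and *AGL48* reached a mean of 10 through WT alone, and *AGL92* through *agl62* alone. These counts therefore carry no weight as support. Over the genes that reached a mean of 10, the median log2 ratio with 1 added to each mean was -0.26 for the 21 of the list. It was -0.40 for the 16 outside the 7 and 0.01 for the 20255 among all genes.

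The lower genes outside the 7 were *AGL62*, *AGL64*, *AGL48*, *AGL36* and *PHE1*. The Mα gene *AGL64* had 5.09 in *agl62* and 117 in WT (log2 ratio -4.52), and the Mγ gene *AGL48* had 0.256 in *agl62*, which is 1 count, and 32.4 in WT (log2 ratio -6.98, interval -12.87 to -4.35). *AGL36*, an imprinted Mγ gene of the endosperm, had 11.1 in *agl62* and 33.4 in WT (log2 ratio -1.59). *PHERES1* (*PHE1*), an imprinted gene of the same subfamily that is expressed from the paternal allele, had 98.6 in *agl62* and 302 in WT (log2 ratio -1.61), whereas its near copy *PHE2* had 60.0 in *agl62* and 96.3 in WT (log2 ratio -0.68). The higher genes were *AGL28*, *AGL102* with 50.2 in *agl62* and 19.9 in WT (log2 ratio 1.33), and *AGL92*, which had 21.2 in *agl62* and 0 in WT and was at least 9.67-fold higher in *agl62* seeds. Several type I genes, *PHE1* and *PHE2* among them, have close copies, so their values are uncertain where reads could not be placed uniquely. *AGL92*, like *AGL46*, was at 0 in one genotype, but in the other direction. *AGL99*, an Mα gene, had 377 in *agl62* and 413 in WT.

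**Figure D3:**
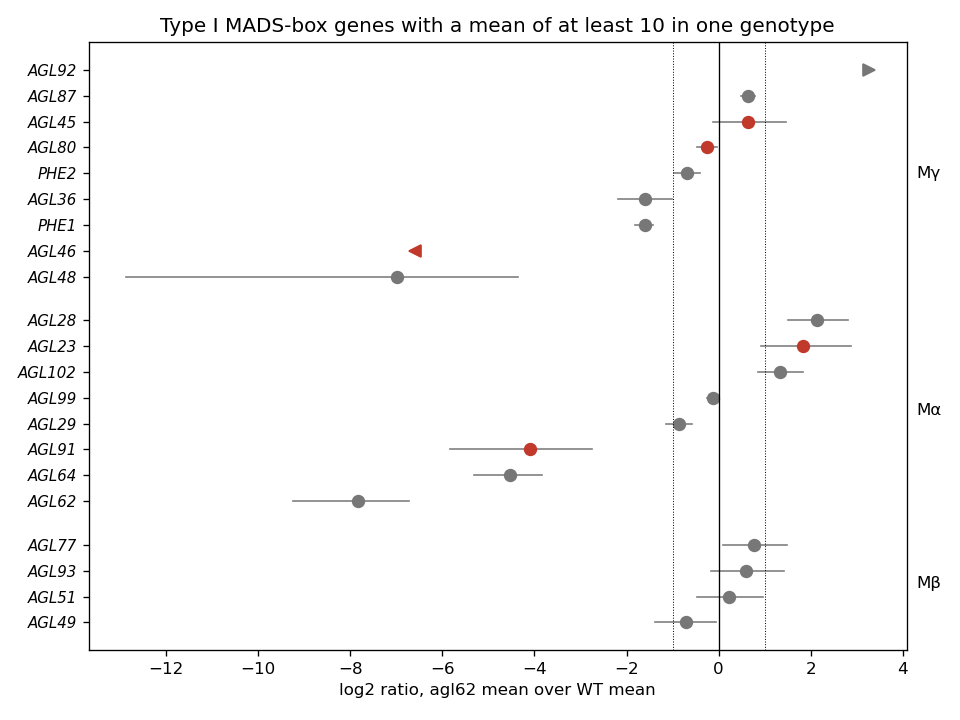
Log2 ratio (*agl62* mean over WT mean) for the 21 type I MADS-box genes that reached a mean of 10 in one genotype, by subfamily, with the 7-gene group in red, other genes in grey, lines for the 95% counting interval and dotted lines at 2-fold. Triangles are bounds for *AGL92* (at 0 in WT) and *AGL46* (at 0 in *agl62*), and lower and higher genes stand side by side within Mγ and within Mα, while the 4 Mβ genes lie within 2-fold.

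Likeness to each member was measured as the distance between pairs of means on the log2 scale with 1 added, over the 2 pooled means only. *AGL46* was nearest to *AGL48* (1.5), *AGL91* (2.29) and *AGL62* (2.62), and *AGL91* was nearest to *AGL48* (1.02), *AGL59* (2.12) and *AGL46* (2.29). *AGL80* was nearest to *PHE2* (1.01), *PHE1* (1.18) and *AGL29* (1.2). *AGL45* was nearest to *AGL93* (0.03), *AGL51* (0.39) and *AGL77* (0.56), all of the Mβ subfamily. *AGL23* was nearest to *AGL45* (0.80), *AGL93* (0.82) and *AGL52* (1.03). A distance over a pair of values ranks genes by level as much as by difference, and nothing further was drawn from it.

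Genes known from the central cell were described beside the 7, from a list of 14. Of these, 11 had a mean of at least 10 in one genotype, and 9 were at least 2-fold lower in *agl62* seeds, none was higher and 2 were neither, beside 3.58% lower and 3.2% higher among all genes (12.7% and 14.5% at averages of 10 to 50). The median log2 ratio over these 11 genes, with 1 added to each mean, was -1.59. A further gene drawn up for this list as DD41, AT1G52970, is annotated as *DD11* and was left out for that reason, and it was higher, with 23.6 in *agl62* and 4.21 in WT. *AGL80* is known to be needed for the expression of *DEMETER* (*DME*) and *DD46* in the central cell. *DME*, a DNA demethylase gene, had 8930 in *agl62* and 8540 in WT (log2 ratio 0.06). *DD46* had 54.4 in *agl62* and 397 in WT (log2 ratio -2.87), 7.3-fold lower in *agl62* seeds. The *AGL80* mean was 1.2-fold lower. These means come from whole seeds, and their dependence on *AGL80* was not tested.

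Other genes of the list spread widely. *MEDEA* (*MEA*), an imprinted Polycomb gene, had 49.8 in *agl62* and 333 in WT (log2 ratio -2.74), and AT3G10890 (DD65) had 18.2 in *agl62* and 242 in WT (log2 ratio -3.73). *FWA*, an imprinted homeodomain gene, had 358 in *agl62* and 720 in WT, a log2 ratio of -1.01 that lies at the 2-fold line, as did that of AT3G04540 (DD25) with 37.8 in *agl62* and 76.0 in WT. *FIS2*, a Polycomb gene of the same complex as *MEA*, went the other way by less than 2-fold, with 143 in *agl62* and 83.9 in WT (log2 ratio 0.77). *MYB119*, listed as a central cell gene, had 0 in *agl62* and 2.42 in WT, little above the WT floor of 2.19. *MYB64* of the same list had 3.48 in *agl62* and 3.73 in WT. The summed level of the list was 10782 in *agl62* and 13904 in WT, mostly *DME*.

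**Figure D4:**
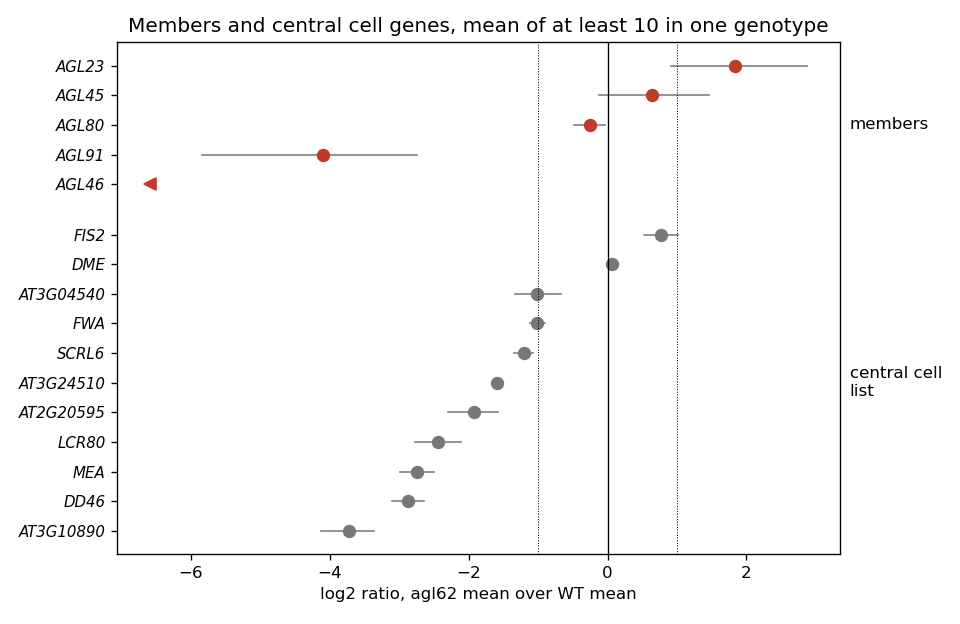
Log2 ratio (*agl62* mean over WT mean) for the 5 genes of the group (red) and the 11 central cell genes (grey) that reached a mean of 10 in one genotype, with 95% counting intervals, a triangle for the bound of *AGL46* and dotted lines at 2-fold. *AGL80* and *DME* lie near 0, *DD46* and *MEA* lie near -2.8, and none of these 11 genes lies above the upper line.

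Markers of other cells of the seed are given beside the 7 genes, and they differed between genotypes in some lists and not in others. Of 10 early endosperm genes, 7 had a mean of at least 10 in one genotype, with 5 at least 2-fold lower in *agl62* seeds, none higher and 2 neither, beside the same 3.58% lower and 3.2% higher among all genes. Of the lower genes, *YUC10*, *TAR1* and *MINI3* reached that level through WT alone, so that this count carries no weight as support. The list includes *PHE1*, *PHE2* and *AGL36*. The auxin synthesis genes *YUC10* and *TAR1* had 4.6 and 5.15 in *agl62*, against 32.9 and 47.6 in WT. *MINI3*, a WRKY gene of endosperm growth, had 7.46 in *agl62* and 149 in WT, whereas the sucrose transporter gene *SUC5* had 14800 in *agl62* and 13500 in WT. The summed level of the endosperm list was 15001 in *agl62* and 14174 in WT, most of it *SUC5*. Its member *AGL90* had 9.4 in *agl62* and 0 in WT, and the other 9 had reads in both genotypes.

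The embryo marker *LEC1* had 325 in *agl62* and 38.0 in WT, while *WOX8* had 40.6 in *agl62* and 33.6 in WT. The 5 egg cell genes summed to 231 in *agl62* and 190 in WT. Of the 3 that reached a mean of 10, 1 was higher, *EC1.1*, which reached it through *agl62* alone. Among all genes 3.2% were at least 2-fold higher, and 14.5% at averages of 10 to 50. These shares apply to the other lists in this paragraph as well. The synergid gene *MYB98* had 3.68 in *agl62* and 1.87 in WT. The 5 seed coat genes were within 2-fold, with a median log2 ratio of -0.06. Of 3 genes of photosynthetic tissue, *RBCS3B* was higher, with 607 in *agl62* and 209 in WT, while *RBCS1A* had 37100 in *agl62* and 23500 in WT and *CAB1* had 23500 in *agl62* and 17500 in WT. Of 3 pollen genes, *AGL65* had 246 in *agl62* and 282 in WT, and *AGL66* and *AGL104* were under the floor in both genotypes. Whether any of these shifts has a part in the values of *AGL46*, *AGL91* or *AGL23* was not tested.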

How the data were processed

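Messenger RNA of *agl62* and WT seeds was sequenced as 100-bp paired end reads on a HiSeq2000. The authors ran TopHat against the TAIR10 genome, retained reads that mapped uniquely, and used DESeq for the genotype comparison. The counting tool, annotation, strand setting and versions are not given in the sources used here. Each deposited signal value is an average that the authors took over the 3 libraries of a genotype, after dividing counts by size factors, and is written to 3 significant digits. The deposited table also holds the authors' fold change, its log2, a p-value and an adjusted p-value, which were not used. No column held a single library, so no model was fitted and no test was run.

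The log2 ratio (*agl62* mean over WT mean) was computed for each gene. The size of 1 count in each library was read from means under 1, and 95% intervals (Poisson for means, conditional binomial for ratios) were made from the effective counts. They cover counting error only. The relative depths so found, 0.456 to 1.38, limit the precision of genes with few counts. A ratio against 0 was set against 3 counts over the genotype, and means at or under that floor in both genotypes got no ratio. On simulated Poisson counts, the size of 1 count, the fold calls and the ratio intervals were tested. The calls and intervals were tested there only for genes with WT means above 50. The floor and the bounds against 0 were not part of that simulation. Genes were counted past a fold of 2 among those with a mean of at least 10 in one genotype, with folds of 1.5 and 3, means of 3 and 50, pseudocounts of 1 and 10 and other scalings as alternatives. Genes named were the 7 members, *AGL62*, marker genes with a value beside a result, and type I genes past 2-fold, at most 5 in each direction, and the 3 type I genes closest to a member in their means. Closest sequence matches, neighbours and type I genes set beside them were added. Members and lists were chosen with earlier results of these data known. Names, coordinates and sequences are of RefSeq TAIR10.1 and were joined by locus identifier (31912 of 32678 matched). The table has no coordinates, and AT3G05860 is named *AGL45* from the list of members alone. DD41 was left out of the central cell list because its locus is annotated as DD11. Sequence matches used blastn. Python 3.11.15, numpy 2.4.6, pandas 2.3.3, scipy 1.17.1, biopython 1.88 and matplotlib 3.10.9 were used.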

Additional observations from a re-analysis of the deposited data

How the results depend on the processing

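No paired analysis was possible because only 1 mean per genotype was at hand, and for the same reason no replicate could be left out and no other count normalization could be run. No ratio changed sign under the pseudocounts of 1 and 10 or the 2 other scalings, and *AGL61*, under the floor in both genotypes, had no ratio. A pseudocount of 10, which by construction shrinks ratios of low means, moved the log2 ratio of *AGL23* to 0.89, of *AGL91* to -1.54 and of *AGL46* to -3.34. It also left 0 of the 5 genes of the group that reached a mean of 10 at least 2-fold higher in *agl62*, and 361 of the 20255 among all genes. With a mean of at least 50, only *AGL80* and *AGL46* of the 7 remained, and 1 was lower and 0 higher. Among the genes that reached 50, 4 type I genes were lower and 1 higher, and 408 of all genes were lower and 271 higher. Fewer genes were tested at that mean, so these counts cannot be set against the main ones as shares. With a fold of 1.5, 2 of the 5 and 8 of the 21 type I genes were higher, and 1199 of the 20255 genes were lower and 1464 higher. With a fold of 3, 303 of the 20255 genes were higher. With a mean of at least 3, which lets more genes in, 1135 were. The other 43 values moved by less than their counting interval or, for counts, stayed within 1.5 times the value reported. Low counts limit *AGL96* and *AGL61* in both genotypes, *AGL91* in *agl62* and *AGL23* in WT.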
